A study of Sus scrofa with 16 samples.

Results

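Interferon-stimulated genes were followed in left ventricular myocardium of young White Yorkshire-Landrace pigs. A set of 44 genes that interferons switch on was named by symbol. Of these, 38 have a row under their symbol among the 22629 genes of the deposited tables. *GBP1* and *EIF2AK2* were found only under an Ensembl ID, are described apart and are left out of the counts of list members below. No entry was found for *IFIT3*, *OAS1*, *XAF1* and *GBP5*.

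RNA was measured in 4 pigs with ischemia/reperfusion (IR) and 4 sham-operated pigs. All pigs were operated on at 1 month of age. In IR pigs the left anterior descending artery was occluded for 1 h and then released, and sham pigs had the operation with no occlusion. Amiodarone was given before the incision, and heparin is described for the IR pigs alone, so that drug and the occlusion cannot be told apart. Scar zone and border zone tissue was taken 4 weeks later, and in sham pigs from the matching regions. Each pig gave 1 sample per zone, 16 samples in all. The IR pigs were numbers 2 and 14 (female) and 9 and 11 (male), and the sham pigs were numbers 4 and 5 (female) and 12 and 13 (male). The IR group holds pigs that survived the occlusion, and each sample is a single piece of tissue.

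Interferons are secreted proteins that warn cells of viral or damaged nucleic acid. Type I interferons bind IFNAR1 and IFNAR2 and act through JAK1 and TYK2 on a complex that holds STAT2 and IRF9 and turns on antiviral genes. Interferon gamma, made mainly by T cells and NK cells, induces IRF1, guanylate binding proteins and genes of antigen processing. In the infarcted heart, nucleic acid released by dying cells is a known trigger of the type I pathway in macrophages.

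The samples held between 15427663 and 49045206 estimated counts. A count of 3 corresponds to between 0.0693 and 0.204 CPM (counts relative to the library total, scaled by TMM), a limit set by counting error alone. The 2 samples of pig 11 held 34251150 counts in scar and 49045206 in border tissue, the latter the deepest library. Pig 9 had 36509911 and 33521418, and the other 6 pigs had between 15427663 and 27088652. Mitochondrially encoded genes took 12.05% to 20.5% of the counts, with 16.4% and 20.5% in pig 11. Log2 CPM values correlated between 0.974 and 0.995 across pairs of samples, and no pair was identical. The 5 cardiomyocyte markers with an entry summed to between 52328 and 84409 CPM in the 16 samples, as the tissue label says. In bulk tissue, fewer cells of a type and less RNA per cell cannot be told apart.

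The interferon-stimulated genes had 1 pattern in common. All 38 were highest in IR pig 11 in the scar zone, and all 38 were highest in the same pig in the border zone. Sham pig 5 was lowest for 34 of 38 in the scar zone and 30 of 38 in the border zone. The other 6 pigs lay between, and IR and sham pigs overlapped among them. Over all 14278 genes tested in the 16 samples, pig 11 was highest for 19.1% in scar and 14.9% in border tissue, and pig 5 lowest for 14.9% and 12.2%.

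The score of a pig is the mean log2 CPM over the 37 genes that passed the filter on low counts in both zones, given as a description with no test. In the scar zone it was 4.32 in IR pig 2, 4.66 in IR pig 9, 6.97 in IR pig 11 and 4.63 in IR pig 14. The sham pigs had 4.66 in pig 4, 3.46 in pig 5, 4.63 in pig 12 and 4.84 in pig 13. Pig 11 stood 2.12 above the next pig, which was a sham pig, and the 6 pigs between the extremes covered a range of 0.53. Border zone scores were 4.18 in IR pig 2, 4.60 in IR pig 9, 7.002 in IR pig 11 and 4.60 in IR pig 14. The sham scores there were 4.67 in pig 4, 3.62 in pig 5, 4.78 in pig 12 and 4.80 in pig 13. Pig 11 was 2.20 above the next pig and the 6 middle pigs covered 0.62. The groups overlapped in both zones.

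**Figure D1:**
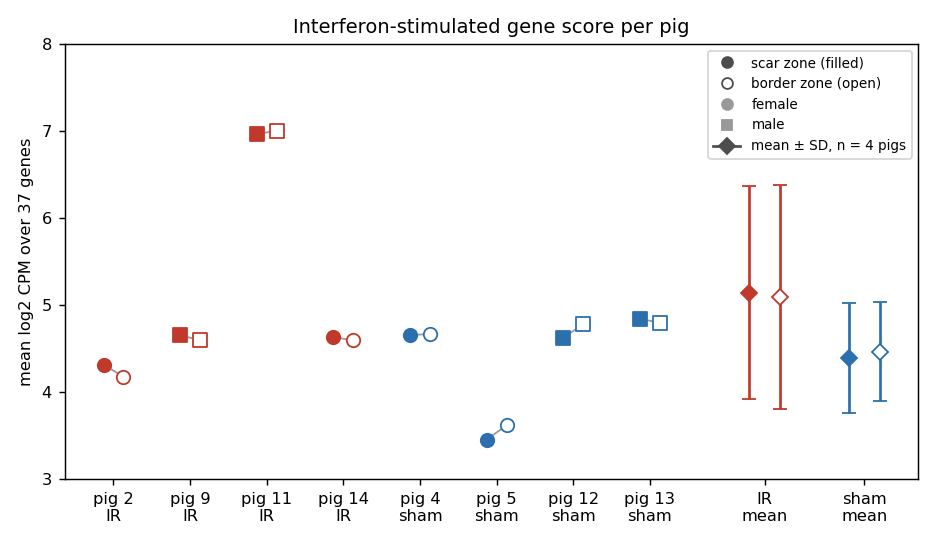
Mean log2 CPM over 37 interferon-stimulated genes (vertical axis) for each pig, with the scar zone filled and the border zone open, circles for females and squares for males, and diamonds with bars for the mean ± SD of 4 pigs. IR pig 11 sits at 6.97 and 7.002, sham pig 5 at 3.46 and 3.62, and the other 6 pigs between 4.18 and 4.84.

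The mean score was 5.14 ± 1.22 in IR and 4.40 ± 0.63 in sham pigs in the scar zone, and 5.09 ± 1.29 and 4.47 ± 0.57 in the border zone (SD, n = 4 pigs each). The IR minus sham difference was 0.75 in scar and 0.63 in border tissue, which is smaller than the SD of the IR pigs. Without pig 11 the difference was 0.14 in scar and -0.01 in border tissue. Without pig 5 it was 0.43 and 0.34. Within females (n = 2 against 2, without pig 11) the difference was 0.42 in scar and 0.24 in border tissue. The female sham pigs include pig 5, and both female IR pigs scored below the other female sham pig, pig 4, in both zones. Within males, which include pig 11, the difference was 1.08 and 1.01. With 2 pigs per sex and surgery, sex and single animals cannot be told apart.

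IR and sham pigs were compared gene by gene with the quasi-likelihood test of edgeR on the estimated counts. A gene was called at a Benjamini-Hochberg adjusted p of at most 0.05 and a change of at least 2-fold, and a second rule used the unadjusted p. In the scar zone 37 of the 38 genes passed the filter, *OASL* being too low, and 0 were called at the adjusted p (smallest 0.438), as were 0% of all 14023 genes. By the unadjusted rule 6 of 37 were past the threshold upward in IR pigs and 0 downward, against 2.74% of all genes higher. Of the border zone genes, 38 were tested and 0 called at the adjusted p (smallest 0.988), as were 0% of 13728 genes. Here 6 of 38 were past it upward by the unadjusted rule and 0 downward, against 0.517% of all genes higher. The median log2 fold change reached 1.10 in the scar zone, with 37 of 37 above 0, and 1.09 in the border zone, with 38 of 38 above 0. Over all genes tested the medians were 0.03 and 0.00.

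No interferon-stimulated gene separated the groups. The values of IR and sham animals overlapped for all 37 genes tested in scar and all 38 tested in border tissue, where 4.86% and 2.03% of all tested genes did not overlap. Without pig 11 the median fold change (log2) was 0.04 in the scar zone, with 22 of 37 genes above 0, and -0.08 in the border zone, with 14 of 38 above 0. The counts at the unadjusted p, 6 in each zone with all pigs, moved with every pig that was left out. In the scar zone they were 0 without pig 5, 11 or 12, 2 without pig 4, 3 without pig 13, 12 without pig 14, 13 without pig 9 and 17 without pig 2. The share of all genes that passed upward moved too, and was 1.87%, 1.51% and 2.27% without pig 5, 11 or 12, 2.72% without pig 4, 2.68% without pig 13, 4.8% without pig 14, 1.73% without pig 9 and 4.3% without pig 2. Border zone counts were 0 without pig 11, 1 without pig 5, 2 without pig 13, 3 without pig 4 or 12, 12 without pig 14, 14 without pig 9 and 20 without pig 2. There the share of all genes was 0.209% without pig 11, 0.331% without pig 5, 0.513% without pig 13, 0.389% and 0.858% without pig 4 or 12, 0.906% without pig 14, 0.902% without pig 9 and 0.677% without pig 2. DESeq2 gave 2 genes in scar and 1 in border tissue by the same rule, against 2.76% and 0.51% of all genes.

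**Figure D2:**
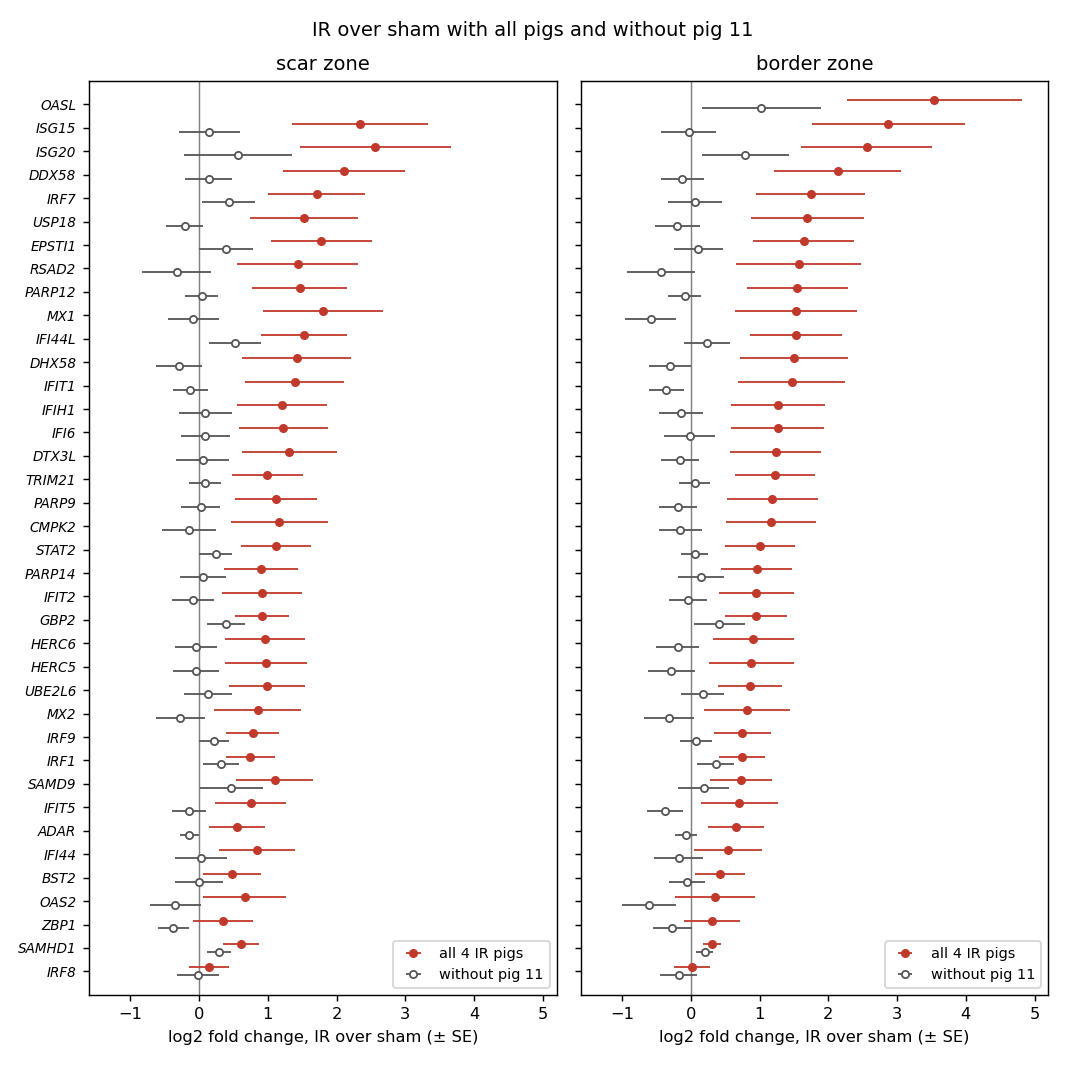
Log2 fold change of IR over sham (horizontal axis, ± SE from edgeR) for each gene in the scar and border zone, with all 4 IR pigs (filled) and without pig 11 (open). With all pigs every gene lies above 0, with medians of 1.10 and 1.09, and without pig 11 the genes lie around 0, with medians of 0.04 and -0.08. *OASL* was tested in the border zone but not in the scar zone.

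Against the range of the 4 sham pigs, the IR pigs differed from one another. Pig 11 was above the highest sham pig for 38 of 38 genes in both zones, where 32.9% of all genes were above it in scar and 24.1% in border tissue. Pig 2 was above the sham range for 0 genes in both zones, where 23.2% and 23.6% of all genes were above it. It was below the range for 3 genes of the list in scar and 7 in border tissue, where 22.2% and 24.9% of all genes were. Pig 14 was above it for 4 genes in scar and 4 in border tissue, against 22.1% and 20.1% of all genes. Pig 9 was above it for 12 genes in scar and 8 in border tissue. Of all genes, 31.8% were above the sham range in pig 9 in scar and 21.9% in border tissue, so the counts of pig 9 were near the background.

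The excess of pig 11 was large for most of these genes. Folds between pigs were taken on log2 CPM with a prior count of 2, which lowers them for rare transcripts. Relative to the mean of the sham pigs, the median was 5.32-fold in the scar zone (range 1.502 to 37.7) and 5.73-fold in the border zone (1.42 to 47.5). Relative to the second highest pig it was 3.74-fold (1.03 to 11.9) and 4.16-fold (1.10 to 19.8). In pig 9 the median over the sham mean was 1.23-fold and 1.05-fold. Across all tested genes, 114 were at least 2-fold above every other pig in both zones in pig 11. Of these, 32 were members of the list and 15 belonged to a list of further interferon-stimulated genes. At 4-fold or more there were 34 genes, of which 18 were members. The other 7 pigs had 0 to 7 such genes at 2-fold, and 0 of them were members.

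**Figure D3:**
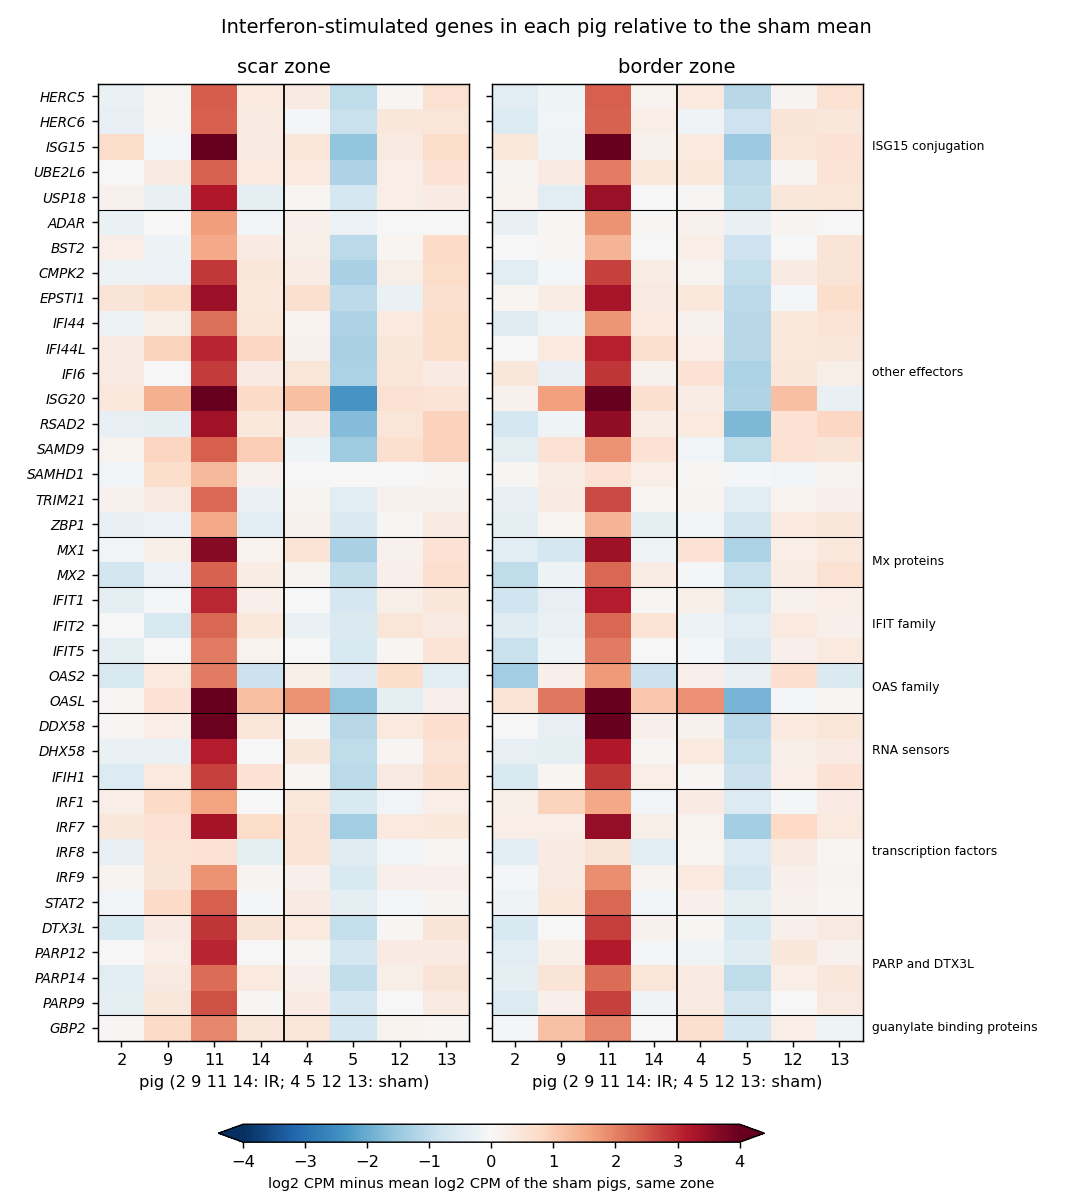
Log2 CPM of each gene and pig minus the mean of the sham pigs in the same zone (colour, from -4 in blue to 4 in red, values beyond drawn in the end colours), with genes in rows by role and pigs in columns, IR to the left of the line. The column of pig 11 is red in both zones, palest for *IRF8* and *SAMHD1*, and the column of sham pig 5 is blue except for *SAMHD1*.

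The excess of pig 11 differed widely among the transcription factors of the list. *IRF7*, which amplifies type I interferon production, had 9.12, 10.2, 67.8 and 11.2 CPM in the scar zone of IR pigs 2, 9, 11 and 14. The sham pigs 4, 5, 12 and 13 had 9.76, 2.50, 8.75 and 8.97 CPM. Pig 11 was 6.04-fold above the next pig, pig 5 was far below the others, and the groups overlapped only through pigs 2 and 4. *IRF7* had a log2 fold change of 1.71 ± 0.71 (SE, edgeR p = 0.0373, adjusted p = 0.438, exact permutation p = 0.0571), and 0.43 ± 0.39 without pig 11. *IRF7* in the border zone had 7.58, 7.57, 71.9 and 7.30 CPM in IR pigs and 6.96, 2.41, 10.9 and 8.28 CPM in sham pigs. *IRF7* had a log2 fold change of 1.74 ± 0.79 there (edgeR adjusted p = 0.988) and 0.07 ± 0.39 without pig 11.

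*IRF1*, a factor most often linked to interferon gamma, had 30.6, 42.9, 78.0 and 24.9 CPM in the scar zone of IR pigs 2, 9, 11 and 14, and 33.9, 16.7, 23.6 and 30.8 CPM in sham pigs 4, 5, 12 and 13. *IRF1* in the border zone had 30.1, 47.3, 74.1 and 23.8 CPM in IR pigs and 31.7, 17.3, 24.1 and 32.0 CPM in sham pigs. Both male IR pigs were above all sham pigs, and both female IR pigs lay inside the sham range. *IRF1* had a log2 fold change of 0.74 ± 0.35 (scar) and 0.74 ± 0.33 (border) (SE, edgeR adjusted p = 0.457 and 0.988). It was 0.32 ± 0.26 and 0.36 ± 0.27 without pig 11. The exact permutation p of *IRF1* was 0.20 and 0.257.

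*STAT2*, the partner of IRF9 in the type I complex, had 43.6, 79.1, 245 and 45.4 CPM in the IR scar zone and 58.1, 36.7, 44.0 and 50.2 CPM in the sham scar zone. *STAT2* in the border zone had 42.9, 65.2, 239 and 44.6 CPM in IR pigs and 55.2, 36.8, 54.2 and 49.97 CPM in sham pigs. Pigs 9 and 11 were above the sham range in both zones. *IRF8*, a factor of macrophage and dendritic cell development, had the smallest excess of pig 11 over the next pig in both zones, with 8.604, 15.7, 16.1 and 8.31 CPM in the IR scar zone and 15.7, 7.64, 9.87 and 11.1 CPM in the sham scar zone. Pig 11 exceeded the next pig by only 1.03-fold for *IRF8*. *IRF8* had a log2 fold change of 0.14 ± 0.29 (scar) and 0.02 ± 0.26 (border) (SE, edgeR adjusted p = 0.848 and 0.996). *IRF9*, the DNA-binding part of the type I complex, was 3.50-fold above the sham mean in pig 11 in scar and 3.66-fold in border tissue.

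The RNA sensors recognise viral RNA in the cytoplasm and are themselves induced by interferon. *DDX58*, which encodes RIG-I, had 32.2, 36.96, 475 and 43.6 CPM in the IR scar zone and 32.0, 14.4, 40.8 and 49.0 CPM in the sham scar zone. *DDX58* in the border zone had 33.5, 26.4, 521 and 38.1 CPM in IR pigs and 36.6, 15.9, 43.5 and 45.9 CPM in sham pigs. Without pig 11 the IR pigs lay wholly within the sham range in both zones. *DDX58* had a log2 fold change of 2.10 ± 0.89 (scar) and 2.14 ± 0.92 (border) (SE, edgeR adjusted p = 0.438 and 0.988), and 0.14 ± 0.34 and -0.12 ± 0.32 without pig 11. Pig 11 was 9.69-fold and 11.3-fold above the next pig for *DDX58*. For *IFIH1* (MDA5) this was 4.22-fold and 4.86-fold, and for *DHX58* (LGP2) 6.12-fold and 6.97-fold.

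ISG15 is a ubiquitin-like protein that UBE2L6 and HERC5 attach to other proteins and USP18 removes. *ISG15* had 37.4, 21.7, 447 and 28.6 CPM in the IR scar zone and 31.4, 7.38, 28.8 and 37.5 CPM in the sham scar zone. *ISG15* in the border zone had 31.4, 21.4, 701 and 26.2 CPM in IR pigs and 30.8, 8.45, 32.8 and 35.3 CPM in sham pigs. The 3 other IR pigs were all below the highest sham pig in both zones. *ISG15* had a log2 fold change of 2.34 ± 0.99 (scar) and 2.87 ± 1.12 (border) (SE, edgeR adjusted p = 0.438 and 0.988, exact permutation p = 0.486 and 0.543). Without pig 11 it was 0.15 ± 0.45 and -0.03 ± 0.40. Over the 5 genes of this system, pig 11 was at a median of 5.39-fold and 5.27-fold over the sham mean, pig 9 at 1.04-fold and 0.91-fold and pig 5 at 0.49-fold and 0.48-fold.

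The IFIT proteins bind foreign RNA and block its translation. *IFIT1* had 52.1, 64.0, 550 and 78.2 CPM in the IR scar zone and 67.0, 42.7, 79.9 and 92.1 CPM in the sham scar zone. *IFIT1* in the border zone had 43.3, 59.1, 664 and 77.8 CPM in IR pigs and 87.4, 47.7, 83.7 and 88.7 CPM in sham pigs. Apart from pig 11, no IR pig reached the highest sham pig. *IFIT1* had a log2 fold change of 1.39 ± 0.72 (scar) and 1.47 ± 0.78 (border) (SE, edgeR adjusted p = 0.483 and 0.988). Without pig 11 it was -0.13 ± 0.25 and -0.36 ± 0.25, and all 3 IFIT genes measured were then below 0 in both zones.

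**Figure D4:**
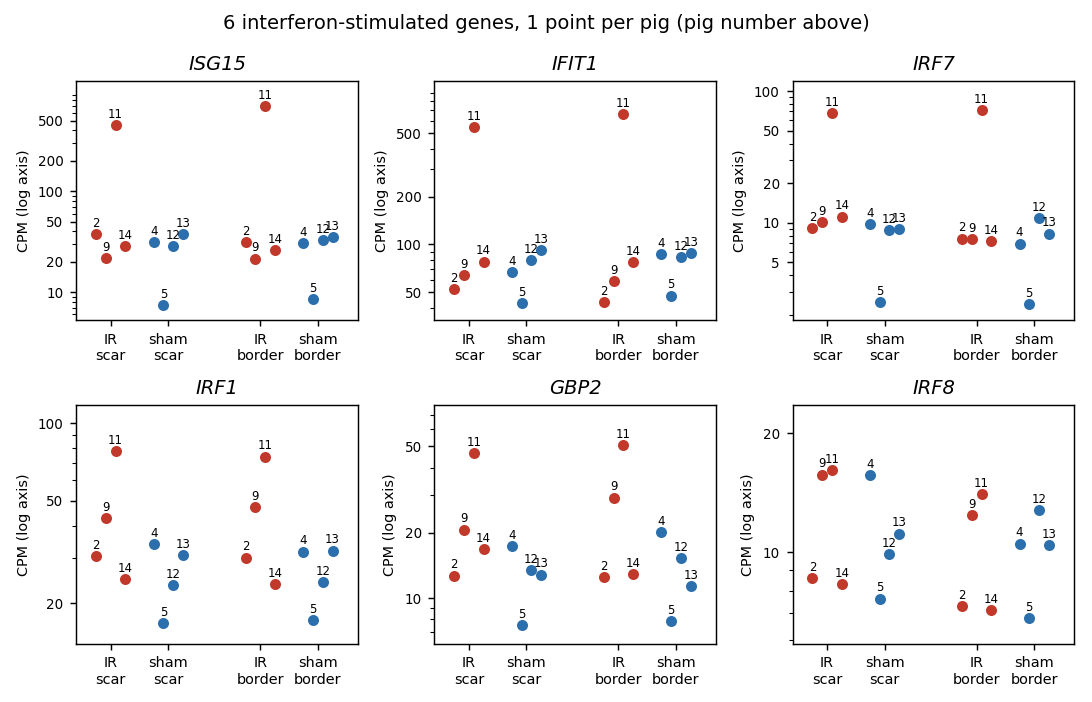
CPM on a log axis of *ISG15*, *IFIT1*, *IRF7*, *IRF1*, *GBP2* and *IRF8*, with 1 point per pig, IR in red and sham in blue, for the scar and border zone. Pig 11 is far above the rest for *ISG15*, *IFIT1* and *IRF7*, pigs 9 and 11 are both above the sham pigs for *IRF1* and *GBP2*, and the groups are mixed for *IRF8*.

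The OAS enzymes make the second messenger that activates RNase L, whereas OASL acts through RIG-I. *OASL* was the lowest gene of the list. It had 0.173, 0.280, 9.07 and 0.477 CPM in the IR scar zone and 0.768, 0, 0.108 and 0.198 CPM in the sham scar zone. *OASL* in the border zone had 0.338, 1.14, 13.4 and 0.526 CPM in IR pigs and 0.924, 0, 0.194 and 0.222 CPM in sham pigs. The scar zone values of IR pig 2 and sham pig 12 stand for 3 counts each, and sham pig 5 had 0 counts in both zones. On the log2 CPM scale pig 11 was 10.8-fold and 11.1-fold above the next pig. *OASL* had a border zone log2 fold change of 3.54 ± 1.27 (SE, edgeR adjusted p = 0.988), and 1.03 ± 0.86 without pig 11. *OAS2* had 41.3, 84.6, 274 and 35.5 CPM in the IR scar zone and 75.6, 44.7, 105 and 48.5 CPM in the sham scar zone. *OAS2* in the border zone had 24.0, 72.2, 207 and 34.6 CPM in IR pigs and 73.1, 51.4, 100 and 41.7 CPM in sham pigs. Both female IR pigs were below every sham pig for *OAS2* in both zones. *OAS2* had a log2 fold change of 0.66 ± 0.61 and 0.35 ± 0.58 (SE, edgeR adjusted p = 0.646 and 0.99), and -0.34 ± 0.37 and -0.61 ± 0.39 without pig 11.

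The Mx proteins are GTPases that trap viral nucleocapsids. *MX1* had 29.9, 37.8, 410 and 35.6 CPM in the IR scar zone and 47.4, 13.3, 36.2 and 48.8 CPM in the sham scar zone. *MX1* in the border zone had 26.1, 21.8, 375 and 31.4 CPM in IR pigs and 53.4, 14.5, 42.4 and 47.5 CPM in sham pigs. The 3 IR pigs other than pig 11 were below 3 of the 4 sham pigs in the border zone. *MX1* had a log2 fold change of 1.81 ± 0.87 and 1.54 ± 0.89 (SE, edgeR adjusted p = 0.459 and 0.988), and -0.08 ± 0.37 and -0.58 ± 0.37 without pig 11. *MX2* was 5.15-fold and 4.89-fold above the sham mean in pig 11.

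Guanylate binding proteins are GTPases that attack the compartments of intracellular pathogens. *GBP2* had 12.7, 20.7, 46.4 and 16.8 CPM in the IR scar zone and 17.3, 7.55, 13.4 and 12.8 CPM in the sham scar zone. *GBP2* in the border zone had 12.5, 29.1, 50.5 and 12.97 CPM in IR pigs and 20.2, 7.83, 15.3 and 11.3 CPM in sham pigs. As for *IRF1*, pigs 9 and 11 were above all sham pigs and pigs 2 and 14 were not. *GBP2* had a log2 fold change of 0.91 ± 0.40 (scar) and 0.95 ± 0.45 (border) (SE, edgeR adjusted p = 0.441 and 0.988), and 0.39 ± 0.28 and 0.42 ± 0.37 without pig 11. *GBP1*, read from its Ensembl ID, had 48.6, 112, 235 and 54.3 CPM in the IR scar zone and 70.8, 22.4, 53.1 and 47.0 CPM in the sham scar zone. *GBP1* in the border zone had 42.2, 148, 222 and 53.5 CPM in IR pigs and 77.5, 25.0, 58.9 and 48.7 CPM in sham pigs. *EIF2AK2*, the RNA-activated kinase PKR and also read from its ID, had 156 CPM in the scar zone of pig 11 against 10.3 to 32.3 CPM in the 7 other pigs, and 171 against 12.96 to 34.1 CPM in the border zone.

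PARP9, PARP12 and PARP14 transfer ADP-ribose, and DTX3L is the ubiquitin ligase that pairs with PARP9. The 4 genes had log2 fold changes between 0.90 and 1.46 in the scar zone and between 0.96 and 1.55 in the border zone, with 0 called at the unadjusted p, where 2.74% and 0.517% of all genes were higher. Without pig 11 they lay between 0.02 and 0.06 in the scar zone and between -0.19 and 0.15 in the border zone. In pig 11 the median of the 4 was 6.53-fold and 6.69-fold over the sham mean, and in pig 5 it was 0.56-fold and 0.63-fold.

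The 13 remaining effectors include enzymes that act on nucleotides and RNA, membrane proteins and DNA sensors. Of these, 3 passed the unadjusted rule in each zone, all upward in IR pigs, against 2.74% and 0.517% of all genes. *RSAD2*, which encodes viperin, an enzyme making a chain-terminating nucleotide, had 29.9, 29.0, 386 and 50.5 CPM in the IR scar zone and 47.3, 11.1, 52.4 and 71.0 CPM in the sham scar zone. *RSAD2* in the border zone had 22.7, 32.7, 431 and 45.2 CPM in IR pigs and 49.0, 10.5, 55.5 and 65.6 CPM in sham pigs. *RSAD2* had a log2 fold change of 1.44 ± 0.88 and 1.57 ± 0.91 (SE, edgeR adjusted p = 0.519 and 0.988), and -0.33 ± 0.50 and -0.43 ± 0.50 without pig 11. *IFI44L* had 42.2, 62.2, 275 and 59.4 CPM in the IR scar zone and 37.6, 13.5, 45.7 and 54.5 CPM in the sham scar zone. Here 3 of 4 IR pigs were above all sham pigs, and the exact permutation p was 0.0857. *IFI44L* in the border zone had 37.2, 49.9, 327 and 58.5 CPM in IR pigs and 45.4, 17.5, 50.4 and 51.7 CPM in sham pigs. *IFI44L* had a log2 fold change of 1.53 ± 0.63 and 1.53 ± 0.67 (SE, edgeR adjusted p = 0.438 and 0.988), and 0.52 ± 0.38 and 0.23 ± 0.33 without pig 11.

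*ISG20*, an exonuclease of single-stranded RNA, was low, with 0.462, 1.00, 9.16 and 0.613 CPM in the IR scar zone and 0.858, 0, 0.542 and 0.514 CPM in the sham scar zone. *ISG20* in the border zone had 0.531, 1.59, 10.1 and 0.759 CPM in IR pigs and 0.584, 0.154, 1.17 and 0.354 CPM in sham pigs. *EPSTI1*, first known from epithelial and stromal cells, had 6.12, 6.97, 46.7 and 5.72 CPM in the IR scar zone and 6.73, 2.03, 3.54 and 6.76 CPM in the sham scar zone. *EPSTI1* in the border zone had 5.51, 6.52, 52.5 and 6.72 CPM in IR pigs and 7.01, 2.51, 5.05 and 8.55 CPM in sham pigs. IR pig 9 was also above all sham pigs for *ISG20* in both zones and for *EPSTI1* in scar tissue, whereas pigs 2 and 14 were not above them for either gene. *ISG20* had a log2 fold change of 2.56 ± 1.10 and 2.56 ± 0.95 (SE, edgeR adjusted p = 0.439 and 0.988), and *EPSTI1* one of 1.78 ± 0.74 and 1.64 ± 0.74 (adjusted p = 0.438 and 0.988). Without pig 11 they were 0.57 ± 0.79 and 0.80 ± 0.63 for *ISG20* and 0.39 ± 0.39 and 0.11 ± 0.35 for *EPSTI1*.

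*SAMHD1*, which breaks down deoxynucleotides, was the only gene of the list with pigs 9, 11 and 14 above all sham pigs in both zones. It had 41.3, 71.5, 108 and 50.1 CPM in the IR scar zone and 43.5, 43.6, 44.2 and 46.2 CPM in the sham scar zone. *SAMHD1* in the border zone had 45.3, 54.7, 65.4 and 52.4 CPM in IR pigs and 45.2, 42.6, 41.1 and 47.6 CPM in sham pigs. Pig 2 was not above all sham pigs. Pigs 9, 11 and 14 were also above them for *IFI44L* and *IRF7* in scar tissue and for *PARP14* in border tissue. Pig 5 was not the lowest for *SAMHD1*, nor for *OAS2* and *ADAR*, in both zones. *SAMHD1* had a log2 fold change of 0.60 ± 0.26 (scar) and 0.31 ± 0.13 (border) (SE, edgeR adjusted p = 0.439 and 0.988), below 2-fold in both. Without pig 11 it was 0.29 ± 0.18 and 0.20 ± 0.12. The exact permutation p was 0.143 and 0.0571, where 0.0286 is the smallest that 4 against 4 pigs can give.

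*BST2* (tetherin, which holds budding virus at the membrane) and *ZBP1* (a sensor of Z-form nucleic acid) had some of the lowest fold changes of the list. *BST2* had 48.8, 35.7, 116 and 51.3 CPM in the IR scar zone and 47.8, 19.4, 42.9 and 69.7 CPM in the sham scar zone. *BST2* in the border zone had 47.7, 49.1, 123 and 47.7 CPM in IR pigs and 57.3, 26.7, 48.2 and 68.3 CPM in sham pigs. *ZBP1* had 9.01, 9.72, 32.2 and 8.31 CPM in the IR scar zone and 12.8, 7.59, 11.6 and 14.6 CPM in the sham scar zone. *ZBP1* had a log2 fold change of 0.34 ± 0.44 and 0.31 ± 0.41 (SE, edgeR adjusted p = 0.75 and 0.988), and -0.37 ± 0.23 and -0.27 ± 0.29 without pig 11. *SAMD9*, a restriction factor of poxviruses, had 27.4, 45.6, 130 and 49.3 CPM in the IR scar zone and 22.1, 9.32, 39.1 and 47.0 CPM in the sham scar zone. *IFI44* had a log2 fold change of 0.84 ± 0.55 (scar) and 0.55 ± 0.49 (border) (SE), and 0.03 ± 0.38 and -0.17 ± 0.36 without pig 11, which was 2.80-fold and 2.36-fold above the next pig.

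The size of the excess in pig 11 differed between roles. Its median over the sham mean in the scar zone was 3.50-fold for the 5 transcription factors, 4.92-fold for the 3 IFIT genes and 8.90-fold for the 3 RNA sensors. In the border zone these medians were 3.66-fold, 4.87-fold and 9.23-fold. The 2 OAS genes were the highest of all roles, at 12.7-fold in scar and 12.5-fold in border tissue, with *OASL* a rare transcript. The 2 Mx genes were at 8.05-fold and 7.18-fold. Pig 9 was at 1.53-fold and 1.27-fold over the sham mean for the transcription factors, 0.94-fold and 0.82-fold for the IFIT genes and 1.19-fold and 0.81-fold for the RNA sensors. These are descriptions of single animals with no test.

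Levels between genes were compared in TPM, which is scaled for transcript length. In sham samples of both zones (n = 8), *IFI6* was the highest, with a median of 136 TPM (38.0 to 158), and *IFIT1* (48.7 TPM, 25.4 to 56.0) and *BST2* (47.1 TPM, 16.7 to 64.1) followed. The ranges of *IFIT1* and *BST2* overlapped. *ISG20* (0.992 TPM, 0 to 2.48) and *OASL* (0.187 TPM, 0 to 0.774) were the lowest. *ISG15* had a median of 18.8 TPM in sham samples and 19.2 TPM in IR samples, with a highest value of 386 TPM. The medians of *MX1* were 29.2 TPM in sham and 21.0 TPM in IR samples, and those of *IRF1* 15.5 and 23.9 TPM.

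On the log2 CPM scale the scar and border zone of the same pig had nearly the same levels. The score in the scar zone minus that in the border zone was between -0.03 and 0.14 in IR pigs (mean 0.05 ± 0.07, SD, n = 4) and between -0.16 and 0.05 in sham pigs (mean -0.07 ± 0.10, SD, n = 4). On log2(TPM + 1) the difference was 0.11, 0.47, 0.26 and -0.06 in IR pigs 2, 9, 11 and 14 and 0.22, -0.16, -0.18 and -0.04 in sham pigs 4, 5, 12 and 13. On that scale pig 11 had a score of 6.08 in scar and 5.82 in border tissue. In 6 of 8 pigs all 37 genes were, in log2 CPM, within 2-fold between zones, and in pigs 5 and 12 the exception was *ISG20*, a gene of 0 to 1.17 CPM in them. Within pig 11, *ISG15* had a scar minus border difference of -0.65 on the log2 scale and *SAMHD1* one of 0.72. No difference of the IR effect between zones was detected. The median difference of log2 fold changes over 38 genes was 0.02, with 21 above 0, and 0 genes were called at the unadjusted p, against 1.37% of all genes (smallest adjusted p = 1.00, edgeR, 16 samples). The 3 genes with the smallest p had zone differences of 0.31 ± 0.31 for *SAMHD1*, 0.38 ± 0.79 for *SAMD9* and 0.31 ± 0.82 for *IFI44* (SE). The main fit had no term for the pig, so the scar and border samples of a pig counted as independent. With the pig as a replicate block the median was 0.09, with 29 above 0 and 0 called. In the block fit 3 of 38 genes had an unadjusted edgeR p of at most 0.05, against 998 of all 14278 genes. Without the block these were 0 and 317.

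Scar against border zone gave a median log2 fold change of -0.05 over 38 genes in IR pigs, with 15 above 0, and 0 were called at the unadjusted p, against 1.76% of all genes. This fit, and that of the sham pigs below, had no term for the pig. With the pig as a replicate block the median was 0.02, with 24 above 0 and 0 called. In the block fit 4 of 38 genes had an unadjusted edgeR p of at most 0.05, against 1601 of all 14170 genes. Without the block these were 0 and 617. The direction turned with limma on log2(TPM + 1), where the median was 0.17 with 36 of 37 above 0, but on that scale 77.7% of all genes were above 0 and their median was 0.13. In sham pigs the median was -0.06 over 37 genes, with 11 above 0 and 0 called, against 0.101% of all genes. *SAMHD1* had the smallest p in IR pigs, with a log2 fold change of 0.32 ± 0.28 (SE, edgeR adjusted p = 0.989).

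Of the other interferon pathway genes, 71 were listed and 55 had an entry. In the scar zone 49 were tested, 0 were called at the adjusted p (smallest 0.438), and 8 were higher and 0 lower at the unadjusted p, against 2.74% of all genes higher. In the border zone 48 were tested, 0 called (smallest 0.988), and 5 were higher and 0 lower, against 0.517% of all genes. The median log2 fold change was 0.73 and 0.38, and 0.15 and 0.09 without pig 11. By the unadjusted rule 1 and 0 genes were then higher, against 1.51% and 0.209% of all genes.

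The ligands were barely present. *IFNE* and *IFNK* had 0 counts in all 16 samples, *IFNB1* had at most 3 counts in a sample, seen in pig 11 only, and *IFNA1* at most 33.3. *IFNG* had between 0 and 0.626 CPM, the highest in the border zone of pig 9, and 0.299 and 0.231 CPM in pig 11. All 5 ligand genes were below the filter. No ligand was tested.

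Of 5 receptor genes, 2 were highest in pig 11 in scar and 1 in border tissue, where 19.1% and 14.9% of all tested genes were. Of 12 signalling genes, 9 were highest in pig 11 in scar and 4 in border tissue, with a median log2 fold change of 0.29 and 0.08, and 0.088 and 0.0086 without pig 11. By the unadjusted rule 2 and 1 of the 12 were higher in IR pigs, against 2.74% and 0.517% of all genes. Without pig 11 the count was 0 in both zones, against 1.51% and 0.209% of all genes. *IFNAR1*, a chain of the type I receptor, had 54.0 CPM in the scar zone of pig 11 and 43.8 to 71.9 CPM in the sham scar zone. *JAK1*, the kinase shared by the receptors, had 152 CPM in the scar zone of pig 11 and 135 to 154 CPM in sham pigs. Of 5 receptor genes tested, 0 passed either rule in either zone, against 2.74% and 0.517% of all genes higher by the unadjusted rule. The median fold change (log2) of the 5 was 0.18 in scar and -0.13 in border tissue.

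*SOCS3*, a feedback inhibitor of JAK kinases, was high in pig 11 in the scar zone only, with 45.6 CPM against 5.39 to 11.4 CPM in the 7 other pigs. *SOCS3* in the border zone had 8.52 CPM in pig 11 and 4.95 to 8.94 CPM in the others. The sensor *CGAS*, which detects DNA, had 4.34 CPM in the scar zone of pig 11 and 0.992 to 2.17 CPM in the other pigs, whereas its partner *TMEM173* (STING) had 20.2 CPM against 12.6 to 16.8 CPM. Of 10 sensing genes tested in scar and 9 in border tissue, 0 passed either rule. Among all genes 0% were called at the adjusted p, and 2.74% and 0.517% were higher by the unadjusted rule.

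Further interferon-stimulated genes outside the list followed pig 11 too. Of 23 with an entry, 20 were highest in pig 11 in scar and 20 in border tissue, against 19.1% and 14.9% of all tested genes. By the unadjusted rule 6 of 22 were higher in IR pigs in the scar zone and 4 of 22 in the border zone, with medians of 0.94 and 0.90, where 2.74% and 0.517% of all genes were higher. Without pig 11 the medians were 0.19 and 0.15, with 1 and 0 higher, against 1.51% and 0.209% of all genes. *IFITM3*, which blocks viral entry, had 506 CPM in the scar zone of pig 11 against 53.3 to 127 CPM in the other pigs, and 620 against 58.0 to 133 CPM in the border zone. *TAP1*, a peptide transporter of antigen presentation, had 50.1, 90.7, 263 and 49.9 CPM in the IR scar zone and 57.9, 27.2, 51.8 and 49.9 CPM in the sham scar zone. The chemokine *CXCL10* had 25.1, 54.4, 241 and 29.8 CPM in the IR scar zone and 25.7, 12.04, 26.2 and 17.9 CPM in the sham scar zone. *CXCL9*, which interferon gamma induces, was instead highest in pig 9, with 44.5 CPM in the scar zone and 60.6 CPM in the border zone, against 19.2 and 16.1 CPM in pig 11.

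Markers of other cell types moved in part with these animals, and their part in the results was not tested. Over 12 T and NK cell markers, all with counts, the summed level in the scar zone was 43.8 to 66.0 CPM in IR and 18.5 to 64.7 CPM in sham pigs. Border zone sums were 36.3 to 96.2 CPM and 21.3 to 66.4 CPM. Pig 11 held rank 3 of 8 from the highest in the scar zone and rank 4 in the border zone, pig 9 was highest and sham pig 5 lowest in both zones. The marker of all leucocytes, *PTPRC*, was 53.4 and 60.3 CPM in pig 9, 40.7 and 31.4 CPM in pig 11, and 10.7 and 12.5 CPM in pig 5. For 9 macrophage and monocyte markers with an entry, pig 11 had 814 CPM and pig 9 551 CPM in the scar zone, against 235 to 377 CPM in sham pigs, and pig 5 was the lowest. Border zone values were 384 CPM in pig 11, 403 CPM in pig 9 and 205 to 376 CPM in sham pigs. Over 6 fibroblast markers, pigs 9 and 11 had 19797 and 25940 CPM in the scar zone against 4714 to 6249 CPM in sham pigs. In the border zone pig 9 had 4571 CPM and pig 11 6563 CPM against 4398 to 6326 CPM in sham pigs. For 4 neutrophil markers the sums did not overlap in the scar zone, with 2.38 to 7.57 CPM in IR and 0.949 to 2.03 CPM in sham pigs, and pig 11 was highest. The border sums were 1.88 to 3.13 CPM and 0.768 to 1.99 CPM, and pig 11 was at 2.70 CPM. Sums of 6 B and plasma cell markers were 16.1 to 29.2 CPM in IR and 10.1 to 14.9 CPM in sham pigs in the scar zone, again with pig 11 the highest. In border tissue these sums overlapped, with 10.4 to 19.5 CPM and 10.3 to 22.7 CPM. Dendritic cell markers (4 genes) and endothelial markers (5 genes) overlapped between IR and sham pigs in both zones.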

How the data were processed

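The members and gene lists were chosen with earlier results of these data known. The authors sequenced polyadenylated, stranded libraries. Per the labels, Trimmomatic 0.33, HISAT2 2.0.5 and kallisto 0.43.1 were used, and the paper names an index of Ensembl pig cDNA. The genome build is not given in the sources used here. The authors deposited estimated counts, which kallisto divides among transcripts that share reads, so near-identical genes (the Mx, IFIT and GBP families) depend on that division. They also deposited TPM values, a level per transcript length. All 16 columns of each table matched a sample.

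Estimated counts were rounded and tested in R 4.3.3 with edgeR 4.0.16 (TMM scaling, filterByExpr with a minimum count of 10 and a minimum total of 15, quasi-likelihood test, Benjamini-Hochberg over all genes tested). The edgeR fit was checked on counts simulated for the scar zone alone. CPM values use TMM factors of all samples, and log2 CPM a prior count of 2. Folds of single pigs are differences of log2 CPM. Exact permutation tests were two-sided, over 70 divisions of 4 against 4 pigs. P-values of IR against sham within a zone measure the spread between these pigs. Those of the zone dependence and of scar against border come from main fits with no term for the pig. They mix the spread between pigs with that within pigs.

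Genes named singly were 8 fixed markers of the pathway (where present), those with an unadjusted p of at most 0.05 (up to 8 per zone), and the 3 highest and 3 lowest fold changes per zone, with the 3 smallest p in the zone-dependence test and in scar against border of IR pigs, 20 in all. Others, such as those given as examples of a list, were picked with their values known. The alternatives tried were upper-quartile scaling, DESeq2 1.42.0, no filter on low counts, limma 3.58.1 on log2(TPM + 1) and log2(TPM + 0.1), sex as a covariate, 1 factor of unwanted variation, 1 fit of all samples, the pig as a block and leaving out each pig. The limma fits took genes with at least 1 TPM in at least 4 samples, or no filter. The replicate number is the pig, so scar and border samples are paired by animal. Deviations from the group means correlated at 0.354 to 0.692 over all genes in the 8 pigs. Genomic positions and sequences were not used here. A gene of the pathway list is not reported here.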

Additional observations from a re-analysis of the deposited data

Results flagged for a closer look

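In groups of 4 pigs, the gap between the most extreme pig and its neighbour was divided by the whole range of the group, on log2 CPM. Of 84 groups of values, from the gene score and the 20 named genes in 2 zones and 2 surgery groups, 21 were past the limit of Dixon's test. Chance alone flags about 1 in 20 groups, but the groups share animals, and most of the 20 genes were chosen for fold changes or p-values that the same pigs set, so the 2 rates cannot be compared. Over all 38 genes of the list, 11 were past the limit in IR and 6 in sham pigs in the scar zone, and 10 and 7 in border tissue. The share over all genes of the tables was not taken, so these counts cannot be set against a background. In each of the 21 the pig was either IR pig 11, as the highest, or sham pig 5, as the lowest. No explanation was tested.

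For IR pig 11 the score had a gap of 0.872 of the range in scar and 0.852 in border tissue. In the scar zone the share was 0.91 for *MX1*, 0.888 for *DDX58*, 0.90 for *IRF7*, 0.885 for *ZBP1* and 0.907 for *EPSTI1*. In the border zone it was 0.891 for *ISG15*, 0.872 for *MX1*, 0.877 for *DDX58*, 0.984 for *IRF7*, 0.969 for *BST2* and 0.912 for *EPSTI1*. For sham pig 5 the score had a gap of 0.842 in scar and 0.889 in border tissue. In the scar zone the share was 0.837 for *ISG15* and 0.919 for *IRF7*, and in the border zone 0.904 for *ISG15*, 0.905 for *IFIT1*, 0.881 for *IFI44L* and 0.84 for *RSAD2*.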

How the results depend on the processing

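Of 974 values under alternative settings, 900 were classed as unchanged, 40 as reversed, 22 as weaker, 7 as stronger and 5 as moved. The unchanged class allows some movement, for example a scar zone count of 4 or 8 against 6. At the adjusted p 0 genes of the list were called under any setting. Over all genes, DESeq2 called 37 higher and 15 lower of 14023 in the scar zone, and 1 and 1 of 13728 in border tissue. With limma on log2(TPM + 1) this was 2 and 1 of 12173 in the scar zone. The number called at the unadjusted p, 6 in each zone, was 2 in the scar zone with DESeq2 and with limma on log2(TPM + 1) or log2(TPM + 0.1), 0 with limma without a filter and 3 with sex as a covariate. The share of all genes was 2.76%, 1.04%, 1.65%, 0.482% and 1.94% in that order. In the border zone it was 1 with DESeq2 or 1 factor of unwanted variation, 3 in a single fit, 0 with each limma fit, 10 without a filter and 2 with sex. Of all genes these were 0.51%, 0.342%, 0.476%, 0.103% to 0.266%, 0.843% and 0.422%. Leaving out a pig gave 0 to 17 and 0 to 20.

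The median log2 fold change with a pig left out ran from 0.036 (without pig 11) to 1.36 in the scar zone, from -0.080 (without pig 11) to 1.35 in the border zone, from -0.024 to 0.13 for the zone dependence and from -0.090 to 0.078 for scar against border in IR pigs. The border median was 0.60 with limma on log2(TPM + 1), filtered or not, and 0.64 with log2(TPM + 0.1), against 1.09 with edgeR. The border score difference ran from -0.0098 to 0.93. The zone dependence was -0.010 with DESeq2 and 0.25, 0.22 and 0.22 with limma on log2(TPM + 0.1), on log2(TPM + 1) and without a filter, scales on which the median of all genes was 0.13, 0.12 and 0.08. Scar against border in IR pigs was 0.18, 0.17 and 0.17 with those limma fits (all genes 0.14, 0.13 and 0.093), and the replicate block by pig gave 0.021, which changed no call. The cause was not tested.

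Among single genes in the border zone, *OAS2* was -0.085 with limma on log2(TPM + 1), filtered or not, -0.11 with log2(TPM + 0.1), -0.038 with sex and -0.0100 with 1 factor of unwanted variation. *IRF8* was -0.0040 with upper-quartile scaling, -0.029 with sex and -0.037 with 1 factor. Leaving out a pig turned the direction of 15 of 37 genes of the list in the scar zone and 24 of 38 in border tissue, all of them when pig 11 was left out. Among the genes chosen for single values these were, in the scar zone, *MX1* (-0.085 to 2.13), *IFIT1* (-0.13 to 1.70), *OAS2* (-0.34 to 0.95), *RSAD2* (-0.33 to 1.76), *IRF8* (-0.026 to 0.35) and *ZBP1* (-0.37 to 0.53). In border tissue they were *ISG15* (-0.029 to 3.25), *MX1* (-0.58 to 1.88), *IFIT1* (-0.36 to 1.80), *OAS2* (-0.61 to 0.66), *IFI44* (-0.17 to 0.78), *RSAD2* (-0.43 to 1.91), *DDX58* (-0.12 to 2.49), *IRF8* (-0.17 to 0.15), *BST2* (-0.058 to 0.61) and *ZBP1* (-0.27 to 0.49).

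With 4 pigs a group and 1 far from the rest, a shift of the other 3 smaller than the spread of the sham pigs is not measurable here. *OASL*, *ISG20* and the ligands had low counts in most samples, and whether depth set this was not tested.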

Other observations

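Outside the 38 genes listed by symbol, 16 genes were at least 4-fold above every other pig in both zones in pig 11. They were chosen after their values were seen. The 3 that belong to the list of further interferon-stimulated genes were *LGALS3BP*, *DDX60* and *CXCL10*. *LGALS3BP*, a secreted glycoprotein, was 5.01-fold above the next pig in the scar zone and 5.46-fold in the border zone. *DDX60*, a helicase that aids RIG-I, was 4.81-fold and 5.80-fold above it, and *CXCL10* 4.43-fold and 4.96-fold. Of the other 13, 4 have a symbol and 9 an Ensembl ID only, 1 of them the ID of *EIF2AK2*. The 4 were *BATF2*, a transcription factor of activated macrophages (4.24-fold and 4.12-fold), *PLAC8* (5.52-fold and 5.02-fold), *FBXO39* (4.50-fold and 5.83-fold) and *ISG12(A)*, an interferon-induced gene by its name (5.02-fold and 5.24-fold).

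*CXCL9* and *CXCL11* were not highest in pig 11. *CXCL11* had 1.36 CPM in IR pig 14 and 0.928 CPM in pig 11 in the scar zone, and 1.59 CPM in pig 9 and 1.11 CPM in pig 11 in the border zone. *IDO1*, which degrades tryptophan and is induced by interferon gamma, had 0.346, 1.89, 3.20 and 0.885 CPM in the scar zone of IR pigs 2, 9, 11 and 14 and 0.226, 0.0431, 0.325 and 0.474 CPM in sham pigs 4, 5, 12 and 13. Its log2 fold change in the scar zone was 2.56 (edgeR adjusted p = 0.438).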
